A study of Canis lupus familiaris with 34 samples.

Results

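The genes described here are the HOX cluster genes of the dog, read by 30 probe sets of 21 genes among 42860 probe sets and 15115 genes on an Affymetrix Canine_2 array. A member is any probe set whose only gene symbol in the array annotation is HOXA, HOXB, HOXC or HOXD followed by a number, and 1 probe set that carried 2 symbols was left out. The HOXA cluster is covered by 7 genes, HOXB by 8, HOXC by 5 and HOXD by HOXD10 alone. Of the 38 HOX genes in a RefSeq gene table of the dog, 17 have no probe set of their own here and were not analysed. Among the members, 28 of the 30 probe sets matched that table by gene number, and the exceptions are 1 probe set each of HOXC8 and HOXD10, which are named as the array annotation names them.

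HOX genes encode homeodomain transcription factors that lie in 4 clusters in mammals. Their paralog number follows their order along the chromosome, and in the embryo genes with low numbers act toward the head and genes with high numbers toward the tail and the ends of the limbs. Cultured fibroblasts of adult human skin are known to keep a HOX pattern that depends on the site they were taken from, and several HOXA and HOXB genes are active in blood progenitors.

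Each of 34 dogs contributed 1 array. The bone-derived group held 5 osteosarcoma lines (OSCA20, OSCA23, OSCA59, OSCA75 and OSCA71), all from golden retrievers. The spleen-derived group held 13 cultures, of which 10 were hemangiosarcoma lines and 3 were cultures of splenic hematoma, a benign blood-filled lesion, from the dogs Pippin, Baxter and Kylie. Among the hemangiosarcoma dogs, 6 were golden retrievers and the others were a Rottweiler (Joey), a Portuguese Water Dog (ChadP9), a dog labelled Dalmation (Dal4) and a cross of Golden Retriever and Great Pyrenees (DD1), while the hematomas came from a golden retriever (Pippin), a Standard Poodle (Baxter) and a Keeshond (Kylie). The lymphoid group held primary tumor cells of 16 dogs, all golden retrievers except Rascal, a Golden Retriever mix: 1 acute lymphoblastic leukemia (ALL, from Rascal), 2 chronic lymphocytic leukemias (CLL, Maddle and Forrest), 6 diffuse large B cell lymphomas (DLBCL), 1 marginal zone B cell lymphoma (Bitsy) and 6 T-zone lymphomas. Osteosarcoma and spleen-derived cells were grown in culture and the lymphoid cells were not, so culture and lineage cannot be told apart in any comparison with lymphoid cells. No source used here gives the bone of an osteosarcoma, and each line represents 1 dog.

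The values are log2 intensities, with array medians between 5.57 and 5.77. Cell type markers ran with the labels in the lymphoid tumors, whose mean over 5 leukocyte markers was 10.28 to 12.76, against 5.03 to 5.79 in osteosarcoma lines and 5.09 to 6.33 in spleen-derived cultures. The mean over 9 fibroblast and mural cell markers was 10.81 to 12.52 in osteosarcoma lines, 10.22 to 12.13 in spleen-derived cultures and 5.37 to 8.69 in lymphoid tumors. Defining markers of the named tissues were low: the mean over 6 osteoblast markers was 4.55 to 5.26 in osteosarcoma lines, and that over 10 endothelial markers was 4.78 to 5.21 in hemangiosarcoma lines and 4.77 to 5.07 in hematoma cultures. Other groups reached similar means. For osteoblast markers they were 4.17 to 4.8 in spleen-derived cultures and 4.65 to 5.52 in lymphoid tumors. For endothelial markers they were 4.89 to 5.28 in osteosarcoma lines and 5.16 to 6.29 in lymphoid tumors. Of the 6 osteoblast markers, RUNX2, ALPL and BGLAP were higher in osteosarcoma lines than in spleen-derived cultures by limma (adjusted p under 0.05), beside 13% of all genes. RUNX2 lay above the array median on 0 of 5 osteosarcoma arrays. IBSP, DMP1 and PHEX were not called, with medians of 3.29, 3.96 and 3.75 in osteosarcoma lines against 3.41, 3.82 and 4.19. Of the 10 endothelial markers, CDH5 was the 1 called, and it was higher in osteosarcoma lines. The hybridization controls averaged 10.36 to 11.13 in osteosarcoma lines, 9.70 to 10.64 in spleen-derived cultures and 10.49 to 11.69 in lymphoid tumors. The 3′ end of the actin control exceeded its 5′ end by 1.80 to 3.27 in osteosarcoma lines, 0.36 to 2.52 in spleen-derived cultures and -0.30 to 4.03 in lymphoid tumors. The part of these array differences in the HOX values was not tested.

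The HOX probe sets differed in level and in how far they varied. Of the 21 genes, 8 lay above the array median on no array (HOXA13, HOXB1, HOXB2, HOXB9, HOXB13, HOXC10, HOXC13 and HOXD10, the last by the probe set with its higher mean), 2 on all 34 arrays (HOXA9 and HOXC12) and 11 on some. These counts read each gene by its brightest probe set. The other HOXC12 probe sets lay above the median on 1 and 0 of 34 arrays, and the other HOXA9 probe sets on 34 and 2. The range over the 34 arrays was under 1.5 log2 units for 14 of the 30 probe sets and over 3 for 6, which read HOXA4, HOXA5, HOXA7, HOXB6, HOXB7 and HOXD10. The number of HOX genes above the array median was 5 to 9 on an osteosarcoma array (median 8), 4 to 9 on a spleen-derived array (median 7) and 2 to 7 on a lymphoid array (median 4).

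**Figure D1:**
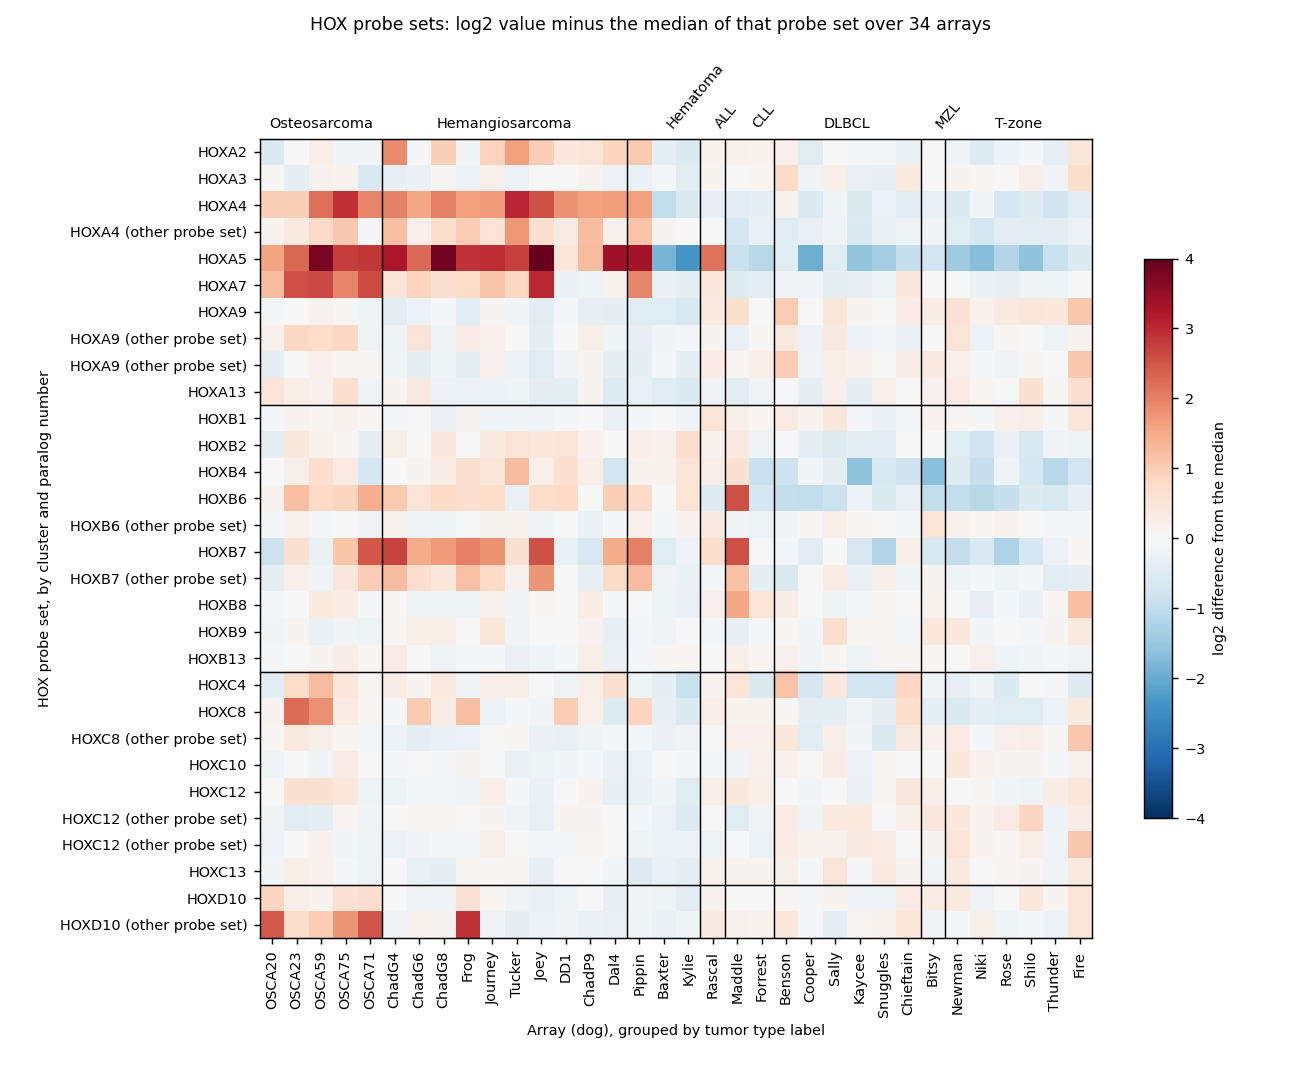
The color gives each probe set's log2 value minus its own median over the 34 arrays, for the 30 HOX probe sets (down the page, by cluster and paralog number) and the 34 arrays (across, by tumor type). The wide departures lie in HOXA4, HOXA5, HOXA7, HOXB6, HOXB7 and 1 probe set of HOXD10, while 14 probe sets span under 1.5 log2 units.

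The paralog groups differed in where their signal lay. The mean log2 value over the 9 genes with paralog numbers 4 to 8 was 6.31 ± 0.45 in osteosarcoma lines (SD, n = 5), 5.94 ± 0.60 in spleen-derived cultures (SD, n = 13) and 4.92 ± 0.39 in lymphoid tumors (SD, n = 16). For the 8 genes with numbers 9 to 13 the mean was 4.73 ± 0.11 in osteosarcoma lines, 4.48 ± 0.13 in spleen-derived cultures and 4.72 ± 0.15 in lymphoid tumors. For the 4 genes with numbers 1 to 3 it was 4.25 ± 0.18 in osteosarcoma lines, 4.47 ± 0.20 in spleen-derived cultures and 4.28 ± 0.21 in lymphoid tumors. The gap between cultured and lymphoid cells was widest in the middle paralogs, though the osteosarcoma OSCA20 (5.53), the hemangiosarcomas DD1 (5.68) and ChadP9 (5.58) and the hematomas Baxter (4.75) and Kylie (4.77) lay within the lymphoid range of 4.57 to 5.91. By cluster, the mean over the 7 HOXA genes was 6.10 ± 0.32 in osteosarcoma lines, 5.73 ± 0.65 in spleen-derived cultures and 5.0 ± 0.25 in lymphoid tumors, and over the 8 HOXB genes 4.91 ± 0.23 in osteosarcoma lines, 4.96 ± 0.18 in spleen-derived cultures and 4.55 ± 0.34 in lymphoid tumors. HOXC means were 5.06 ± 0.42 in osteosarcoma lines, 4.71 ± 0.19 in spleen-derived cultures and 4.76 ± 0.21 in lymphoid tumors.

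The first comparison asked how bone-derived cells differ from spleen-derived cells, both in culture. Of the 21 HOX genes, 4 were higher in osteosarcoma lines (HOXA7, HOXA13, HOXC12 and HOXD10) and 0 were lower by limma at an adjusted p of 0.05, where 13% of all genes were higher and 10.8% lower. Without adjustment, at p under 0.05, 6 HOX genes were higher, and HOXA2 and HOXB2, 2 in all, were lower. The share of all genes at that unadjusted level was not counted. The median difference was 0.16 over the HOX genes and 0.04 over all genes. In bulk RNA, fewer cells that express a gene and less RNA per cell cannot be told apart. The p values measure the spread between these arrays, and the number of arrays limits the precision.

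HOXA7, a middle HOXA gene that takes part in patterning the trunk skeleton of the mouse, had the widest difference among the 4 called genes when each is read by its brightest probe set. Its log2 values were 5.76, 7.07, 7.11, 6.43 and 7.08 in the osteosarcoma lines OSCA20, OSCA23, OSCA59, OSCA75 and OSCA71, against a lowest of 4.09, a median of 5.08 and a highest of 7.51 in spleen-derived cultures. All 5 osteosarcoma lines lay above 11 of the 13 spleen-derived cultures, and the groups overlapped through the hemangiosarcoma Joey (7.51) and the hematoma Pippin (6.42). The mean was 6.69 ± 0.59 in osteosarcoma lines (SD, n = 5) and 5.15 ± 0.97 in spleen-derived cultures (SD, n = 13), a log2 difference of 1.55 (SE 0.44, 2.92-fold, limma adjusted p = 0.0170). Without OSCA59 the difference was 1.44, with an adjusted p of 0.0531.

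HOXD10, which helps pattern the hindlimb and the lumbar nervous system in the mouse, was called through both of its probe sets. The more variable one read 5.72, 3.99, 4.28, 5.04 and 5.81 in OSCA20, OSCA23, OSCA59, OSCA75 and OSCA71, against a lowest of 2.93, a median of 3.13 and a highest of 6.16 in spleen-derived cultures. Every osteosarcoma value exceeded those of 12 of the 13 spleen-derived cultures, and the hemangiosarcoma Frog (6.16) was above all of them. The log2 difference was 1.61 (SE 0.42, 3.05-fold, limma adjusted p = 0.00992). By the other probe set, below the array median on all arrays, the osteosarcoma values of 4.79, 4.20, 4.07, 4.51 and 4.58 compared with 3.51 to 4.51 in spleen-derived cultures, a difference of 0.61 (SE 0.14, adjusted p = 0.00372). With limma's array weights the wider difference was 1.12, with an adjusted p of 0.108.

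The other calls with high paralog numbers were small. HOXA13, a gene of the digits and the genital tubercle in the mouse, read 4.33, 4.09, 3.97, 4.47 and 3.66 in OSCA20, OSCA23, OSCA59, OSCA75 and OSCA71, against 3.27 to 4.18 (median 3.56) in spleen-derived cultures. The groups overlapped and all values were below the array medians, with a difference of 0.51 (SE 0.15, limma adjusted p = 0.0168), which without OSCA75 was 0.42 (adjusted p = 0.0662). HOXC12 read 6.50, 7.12, 7.14, 6.94 and 6.33 in the same lines, against 6.04 to 6.77 (median 6.41) in spleen-derived cultures, a difference of 0.41 (SE 0.13, adjusted p = 0.0299). Its other probe sets gave differences of -0.16 and 0.01 and were not called, and the HOXC12 call itself was lost without OSCA23, OSCA59 or OSCA75 (adjusted p = 0.104, 0.113 and 0.0811).

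A pair of further genes was called through a probe set other than the one with the highest mean. HOXC8, which patterns thoracic vertebrae and brachial motor neurons in the mouse, read 4.56, 6.65, 6.26, 4.76 and 4.49 in OSCA20, OSCA23, OSCA59, OSCA75 and OSCA71 by its brighter probe set, against 3.86 to 5.62 (median 4.37) in spleen-derived cultures. Only OSCA23 and OSCA59 exceeded all spleen-derived cultures, and this probe set was not called (difference 0.71, SE 0.37, adjusted p = 0.173). The dimmer HOXC8 probe set was called with a difference of 0.32 (SE 0.08, adjusted p = 0.00819). HOXA9, a regulator of blood progenitors, was called by 1 of its 3 probe sets (difference 0.50, SE 0.16, adjusted p = 0.0324, and 0.101 to 0.108 without OSCA23, OSCA59 or OSCA75), whereas the brightest gave 0.30 with an adjusted p of 0.0526. Counted by probe set, 7 of 30 members were higher in osteosarcoma lines and 0 lower, beside 13% of all probe sets higher and 11.0% lower.

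HOXA5 and HOXA4, which lie near HOXA7 in the cluster and pattern the neck and upper trunk in the mouse, did not pass in this comparison. HOXA5 read 7.81, 8.54, 10.05, 9.0 and 9.07 in OSCA20, OSCA23, OSCA59, OSCA75 and OSCA71, against 3.88 to 10.42 (median 9.14) in spleen-derived cultures, a difference of 0.62 (SE 0.92, adjusted p = 0.662), which ran between 0.26 without Kylie and 0.90 without OSCA20 as single arrays were left out. Against hemangiosarcoma lines alone its difference turned to -0.08, and that of HOXA4 (0.27, SE 0.52, adjusted p = 0.744) turned to -0.18. HOXB7 averaged 6.88 ± 1.29 in osteosarcoma lines (SD, n = 5) and 7.41 ± 1.18 in spleen-derived cultures (SD, n = 13), a difference of -0.53 with an SE of 0.60 (adjusted p = 0.559), which ran between -0.99 without OSCA71 and -0.16 without OSCA20. HOXA2, a gene of the hindbrain and branchial arches, read 3.44 to 4.23 in osteosarcoma lines and 3.42 to 5.85 in spleen-derived cultures (difference -0.73, SE 0.33, adjusted p = 0.114). Against hemangiosarcoma lines alone HOXA2 was lower by the test (difference -0.91, adjusted p = 0.0361). That setting leaves out the hematomas Baxter (3.6) and Kylie (3.42), which lay within or below the osteosarcoma range. With all 34 arrays in 1 fit, the hematomas kept, HOXA2 was also lower by limma (difference -0.73, adjusted p = 0.0437). HOXA2 was above the array median on 1 of 34 arrays, so its values may lie near background.

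By cluster, the calls in osteosarcoma lines came from 2 of 7 HOXA genes, 0 of 8 HOXB genes, 1 of 5 HOXC genes and HOXD10, with median differences of 0.30, -0.02, 0.37 and 0.61. By paralog number they came from 0 of 4 genes with numbers 1 to 3 (median difference -0.15), 1 of 9 with numbers 4 to 8 (0.32) and 3 of 8 with numbers 9 to 13 (0.23), beside 13% of all genes higher. Of these 3, HOXA13 and the counted HOXD10 probe set lay above the array median on no array. The third, HOXC12, lost its call without OSCA23, OSCA59 or OSCA75, and its other probe sets were not called. Breed was uneven between the groups. Among golden retrievers alone, HOXA7 was the 1 gene called, and the wider HOXD10 difference was 1.35 (adjusted p = 0.118). Set against the 3 hematoma cultures alone, 0 HOX genes were called, and HOXA7 differed by 1.78 (adjusted p = 0.121). Both settings have fewer arrays, and the share of all genes called in them was not counted. Their counts thus cannot be read as particular to the HOX genes.

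**Figure D2:**
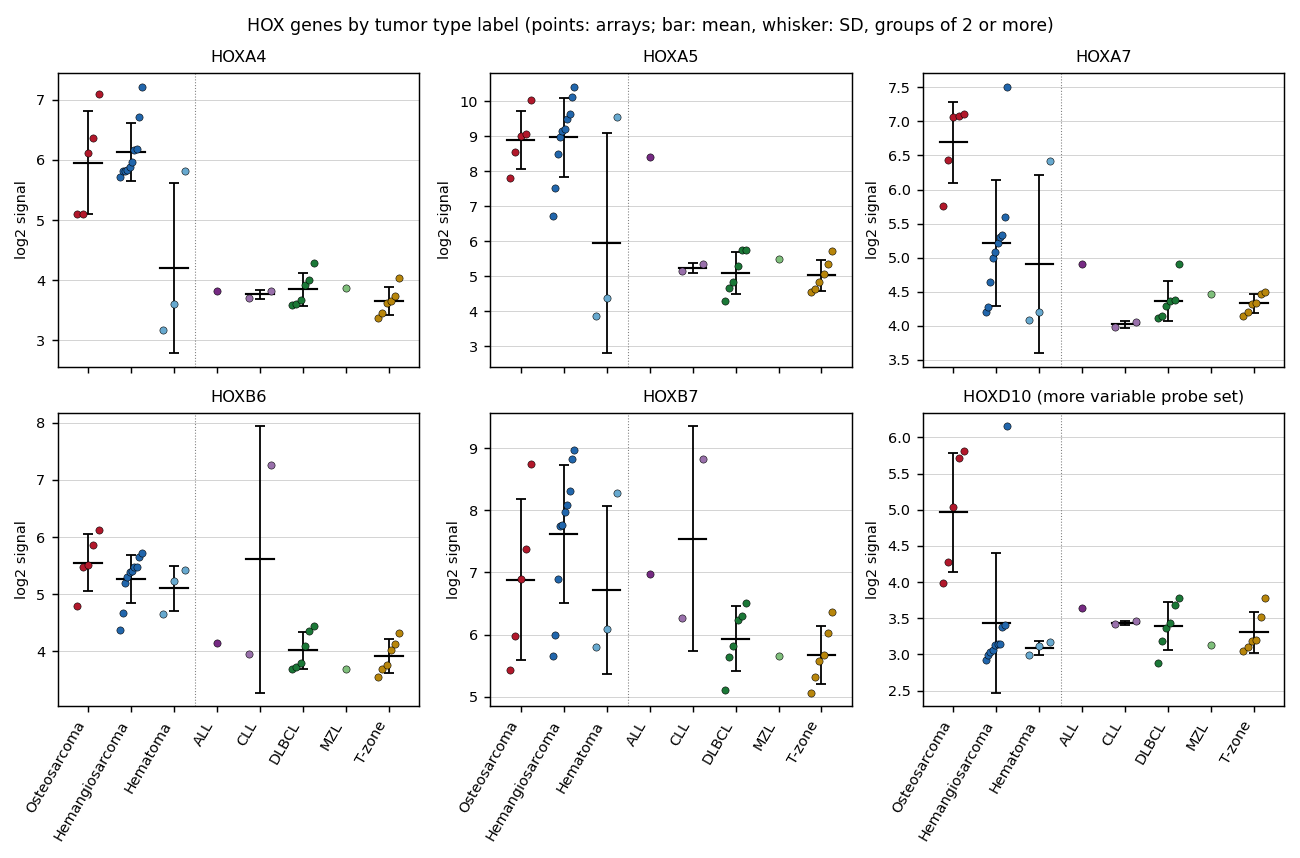
Log2 signal of 6 HOX genes on single arrays by tumor type label (points), with the mean (bar) and SD (whisker) of groups of 2 or more arrays. HOXA7 and HOXD10 lie high in osteosarcoma lines, with Joey (7.51) and Frog (6.16) as the high hemangiosarcoma points, and the CLL of Maddle is the high lymphoid point for HOXB6 (7.26) and HOXB7 (8.83).

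Against the lymphoid tumors, the osteosarcoma lines were higher in HOXA4, HOXA5 and HOXA7, which follow one another among the HOXA genes measured. By limma at an adjusted p of 0.001, these 3 of the 21 HOX genes were higher and 0 lower, where 7.96% of all genes were higher and 4.7% lower. Without adjustment, at p under 0.05, the counts were 7 higher and 1 lower, and the share of all genes at that level was not counted. The median difference was 0.23 over the HOX genes and -0.11 over all genes. All 3 calls fell among the 9 genes with paralog numbers 4 to 8, whose median difference was 1.04, while the medians for numbers 1 to 3 and 9 to 13 were -0.06 and -0.00.

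HOXA5 showed the widest of the 21 differences from lymphoid cells. Against the osteosarcoma values of 7.81 to 10.05 given above, the lymphoid values had a lowest of 4.30, a median of 5.22 and a highest of 8.42. The highest was the ALL of Rascal, which lay within the osteosarcoma range, and the other 15 lymphoid arrays read at most 5.76. The means were 8.89 ± 0.82 in osteosarcoma lines (SD, n = 5) and 5.32 ± 0.94 in lymphoid tumors (SD, n = 16), a log2 difference of 3.57 (SE 0.45, 11.9-fold, limma adjusted p = 1.89e-06). HOXA7 was 3.98 to 4.91 in lymphoid tumors, below every osteosarcoma line (difference 2.34, SE 0.18, 5.07-fold, adjusted p = 1.38e-09).

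HOXA4 read 5.11, 5.11, 6.36, 7.10 and 6.11 in OSCA20, OSCA23, OSCA59, OSCA75 and OSCA71, against 3.38 to 4.29 (median 3.73) in lymphoid tumors. The groups did not overlap, and the difference was 2.19 (SE 0.22, 4.57-fold, limma adjusted p = 8.17e-08). A dimmer HOXA4 probe set was also higher, by 0.83 (SE 0.15, adjusted p = 1.57e-04). The more variable HOXD10 probe set read 2.88 to 3.78 in lymphoid tumors, below all osteosarcoma lines (difference 1.60, SE 0.23, adjusted p = 9.30e-06), and the brighter one was not called (difference 0.40, adjusted p = 0.0244). In all, 5 of 30 HOX probe sets were higher and 0 lower, beside 7.0% of all probe sets higher and 3.81% lower.

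HOXB6, a middle HOXB gene, did not pass here, with 4.80, 5.86, 5.47, 5.52 and 6.12 in OSCA20, OSCA23, OSCA59, OSCA75 and OSCA71, against 3.55 to 7.26 (median 3.99) in lymphoid tumors. The CLL of Maddle, at 7.26, was above every osteosarcoma line, and the other 15 lymphoid arrays (at most 4.44) were below all of them. The difference was 1.39 (SE 0.39, limma adjusted p = 0.0106), and without Maddle it was 1.59 (adjusted p = 4.89e-07). Maddle was the array already seen to run against the difference, so the value without it is a description of its weight. The other HOXB6 probe set gave -0.08 and was not called (adjusted p = 0.605). HOXC8 (1.04, adjusted p = 0.00829) and HOXB7 (0.80, adjusted p = 0.223) were not called.

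**Figure D3:**
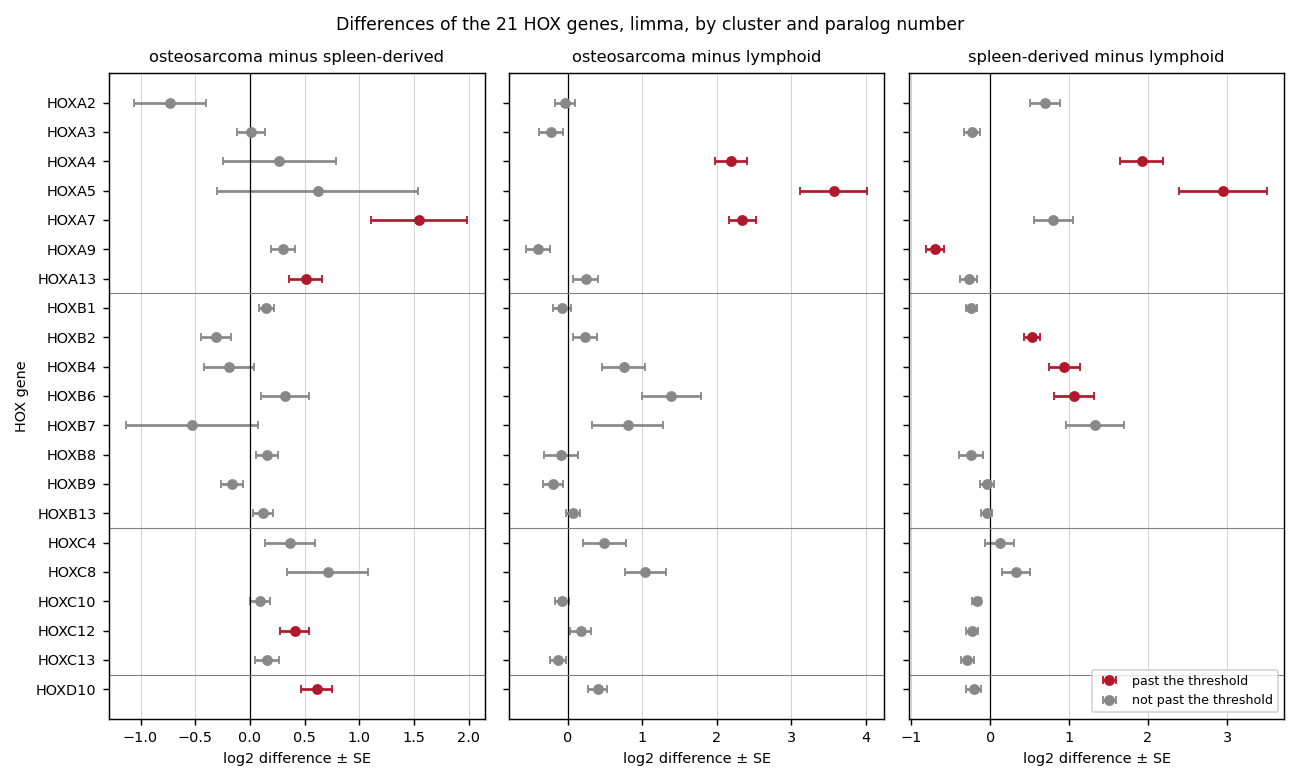
Log2 difference of each of 21 HOX genes, with its standard error as a bar, for osteosarcoma minus spleen-derived, osteosarcoma minus lymphoid and spleen-derived minus lymphoid cells, by cluster and paralog number. Red points passed the adjusted p of their comparison. HOXA4 and HOXA5 stand out in both comparisons with lymphoid cells (2.19 and 3.57 for osteosarcoma, 1.92 and 2.95 for spleen-derived cultures).

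The spleen-derived cultures were set against the same lymphoid arrays, so both comparisons share them. Here 5 HOX genes were higher (HOXA4, HOXA5, HOXB2, HOXB4 and HOXB6) and HOXA9 was lower at an adjusted p of 0.001, where 16% of all genes were higher and 19.5% lower. Breed was uneven here too. Among golden retrievers alone, without Baxter, Kylie and Rascal among others, HOXB2 (0.53, adjusted p = 0.00184) and HOXB6 (1.10, adjusted p = 0.0118) lost their calls, and HOXA2, HOXA7 (1.11, adjusted p = 2.00e-06) and HOXB7 (2.01, adjusted p = 9.11e-05) gained one. The median difference was -0.04 over the HOX genes and -0.16 over all genes. By cluster the calls were 2 higher and 1 lower among 7 HOXA genes and 3 higher among 8 HOXB genes, with 0 calls among the HOXC genes or for HOXD10. Of the 9 genes with paralog numbers 4 to 8, 4 were higher (median difference 0.94), and of the 8 with numbers 9 to 13, 1 was lower (median difference -0.22).

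HOXA5 averaged 8.27 ± 2.09 in spleen-derived cultures (SD, n = 13) and 5.32 ± 0.94 in lymphoid tumors (SD, n = 16), a difference of 2.95 (SE 0.56, 7.72-fold, limma adjusted p = 5.38e-05). HOXA4 had 3.18 as lowest, 5.83 as median and 7.22 as highest value in spleen-derived cultures, against 3.38 to 4.29 in lymphoid tumors (difference 1.92, SE 0.27, 3.79-fold, adjusted p = 7.53e-07). In both genes the hematomas Baxter and Kylie lay among or below the lymphoid values. By the dimmer HOXA4 probe set all 13 cultures (3.48 to 5.19) lay above all lymphoid arrays (2.74 to 3.43), a difference of 1.06 (SE 0.14, adjusted p = 3.20e-07).

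Among the HOXB genes, HOXB4, which promotes expansion of blood stem cells when overexpressed in the mouse, averaged 6.59 ± 0.45 in spleen-derived cultures (SD, n = 13) and 5.65 ± 0.60 in lymphoid tumors (SD, n = 16). The ranges of 5.56 to 7.51 and 4.61 to 6.90 overlapped, and the difference was 0.94 (SE 0.20, 1.91-fold, limma adjusted p = 1.75e-04). HOXB2, a hindbrain gene, was higher by 0.53 (SE 0.10, adjusted p = 7.52e-05) with values of 4.39 to 5.08 in spleen-derived cultures and 3.60 to 4.78 in lymphoid tumors, all below the array medians. HOXB6 was higher by 1.06 (SE 0.25, 2.09-fold, adjusted p = 7.35e-04), a call lost on leaving out single arrays in 22 of 29 cases, and its other probe set gave -0.07. HOXB7, at 5.65 to 8.97 (median 7.76) in spleen-derived cultures and 5.06 to 8.83 (median 5.93) in lymphoid tumors, was not called (difference 1.33, SE 0.37, adjusted p = 0.0031). Without Maddle, the highest lymphoid array for HOXB7, it was called (1.51, adjusted p = 2.75e-04), which is a description of the weight of that array.

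HOXA9, known for its part in human leukemia, was the 1 HOX gene lower in spleen-derived cultures. Its brightest probe set read 7.39 to 8.16 (median 7.68) in spleen-derived cultures and 8.03 to 9.13 (median 8.42) in lymphoid tumors. The ranges met only between 8.03 and 8.16, and the difference was -0.70 (SE 0.11, 1.63-fold, limma adjusted p = 2.48e-06). A further HOXA9 probe set gave -0.45 (adjusted p = 0.00111) and the dimmest gave -0.02. By probe set, 6 of 30 members were higher and 1 lower, beside 14.6% of all probe sets higher and 19.2% lower.

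The hemangiosarcoma lines were compared with the hematoma cultures, both grown from spleen. By limma 0 of the 21 HOX genes were called at an adjusted p of 0.1, where 0.139% of all genes were called in either direction. At an unadjusted p under 0.05, 5 were higher (HOXA4, HOXA5, HOXA9, HOXC4 and HOXC13). The share of all genes at that unadjusted level was not counted, so the 5 cannot be set against the 0.139%. The median difference was 0.22 over the HOX genes and 0.07 over all genes. HOXA5 had 6.73 as lowest, 9.17 as median and 10.42 as highest value in hemangiosarcoma lines, against 9.56, 4.38 and 3.88 in the hematomas Pippin, Baxter and Kylie. Pippin lay within the hemangiosarcoma range and Baxter and Kylie below all 10 lines, which gave a difference of 3.03 with an SE of 1.01 (p = 0.0102 by limma, adjusted p = 0.401). HOXA4 read 5.72 to 7.22 (median 5.93) in hemangiosarcoma lines, against 5.81, 3.18 and 3.60 in Pippin, Baxter and Kylie (difference 1.94, SE 0.45, limma p = 8.16e-04, adjusted p = 0.214).

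The split between Pippin and the other hematomas was seen in further genes, in the HOXA cluster and outside it. HOXA7 read 6.42, 4.21 and 4.09 in Pippin, Baxter and Kylie, and HOXA2 read 5.03, 3.60 and 3.42. HOXB7 read 8.28, 5.8 and 6.09 in the same order, and HOXC8 by its brighter probe set 5.29, 4.11 and 3.86. HOXA3 (4.99, 5.21 and 4.77) and HOXA9 by its brightest probe set (7.56, 7.57 and 7.39) did not show it. The mean over the 7 HOXA genes was 6.13, 4.50 and 4.35 in these cultures, against 5.43 to 6.56 in hemangiosarcoma lines. The mean over the 8 HOXB genes was 5.05, 4.63 and 4.84, against 4.75 to 5.23 in hemangiosarcoma lines. As single arrays were left out, the difference between hemangiosarcoma and hematoma ran between 2.0 without Kylie and 4.84 without Pippin for HOXA5, and between 1.43 without Baxter and 2.74 without Pippin for HOXA4. Among these removals a call was made without Pippin alone (limma adjusted p = 0.0192 for HOXA5 and 0.00392 for HOXA4), the array already seen to run against the difference, so these values are a description of its weight. Pippin is the 1 golden retriever among the hematomas. Fibroblast and mural markers averaged 11.81, 11.29 and 12.13 in Pippin, Baxter and Kylie, leukocyte markers 5.29, 6.33 and 5.18, and the hybridization controls 9.89, 9.87 and 10.64. The 3′ end of the actin control exceeded its 5′ end by 1.74, 1.34 and 0.36 in these cultures, with Kylie the lowest of all cultured arrays. The part of these values in the HOX values was not tested.

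Within the hemangiosarcoma lines, single lines stood apart for single genes. Joey had the highest HOXA5 (10.42) and HOXA7 (7.51) of all 34 arrays, and its mean over the middle paralogs, 6.70, was the highest of the spleen-derived cultures. Frog had the highest HOXD10 by the more variable probe set (6.16, against at most 3.41 in the other 9 lines) and the highest HOXC8 of the spleen-derived cultures (5.62). DD1 and ChadP9 had the lowest HOXA5 of the lines, at 6.73 and 7.51, and Tucker the highest HOXA4, at 7.22.

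Among lymphoid tumors, the highest values of HOXA5, HOXB6, HOXB7 and HOXB8 were found in 2 of the 3 leukemias. The ALL of Rascal had HOXA5 at 8.42, HOXB7 at 6.97 and HOXB4 at 6.54. The CLL of Maddle had HOXB6 at 7.26, HOXB7 at 8.83, HOXB8 at 6.09 and HOXB4 at 6.90, and its mean over the 8 HOXB genes, 5.67, was the highest of the 34 arrays. The CLL of Forrest read 3.96, 6.26, 5.11 and 5.38 for HOXB6, HOXB7, HOXB8 and HOXB4. For HOXB8 the T-zone lymphoma of Fire (5.74) came next after Maddle, above the leukemias of Forrest and Rascal (4.74). The leukemias were not tested against the lymphomas. Between the lymphoma types, DLBCL and T-zone lymphoma, limma called 0 HOX genes at an adjusted p of 0.05, where 11.6% of all genes were called. At an unadjusted p under 0.05 the count of HOX genes was 0, and the share of all genes was not counted. The median difference was 0.03 over the HOX genes and over all genes.

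The HOX proteins bind DNA with partner homeodomain proteins of the TALE class, the PBX and MEIS families. Of 7 such genes measured, 0 were higher and 1 lower in osteosarcoma lines than in spleen-derived cultures, beside 13% of all genes higher and 10.8% lower. That gene was MEIS1, a partner of the HOXA proteins in blood progenitors, with 5.23, 5.20, 5.63, 5.73 and 5.09 in OSCA20, OSCA23, OSCA59, OSCA75 and OSCA71, against 6.55 to 8.49 (median 7.49) in spleen-derived cultures. All osteosarcoma lines lay below all spleen-derived cultures, a difference of -2.18 (SE 0.26, 4.54-fold, limma adjusted p = 3.14e-05). Against lymphoid tumors, MEIS1 differed by -0.14 in osteosarcoma lines (adjusted p = 0.826) and was higher by 2.05 in spleen-derived cultures (adjusted p = 4.95e-07). The ALL of Rascal, with high HOXA5, also had the highest lymphoid MEIS1, at 8.33, and the other 15 lymphoid arrays read 4.61 to 6.49.

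MEIS2 was 8.23 on average in osteosarcoma lines, 8.94 in spleen-derived cultures and 5.92 in lymphoid tumors by its brightest probe set. Between osteosarcoma lines and spleen-derived cultures this probe set was not called (difference -0.71, adjusted p = 0.11), and the other one was called lower (difference -1.13, adjusted p = 0.0207). MEIS2 was higher in spleen-derived cultures than in lymphoid tumors by 3.02 (SE 0.37, 8.09-fold, limma adjusted p = 5.44e-08). In DLBCL it read 5.70, 8.78, 5.90, 8.93, 5.88 and 6.87 in Benson, Cooper, Sally, Kaycee, Snuggles and Chieftain, against 4.64 to 5.70 in T-zone lymphoma. Cooper and Kaycee stood high, and the difference of 1.90 (SE 0.56, adjusted p = 0.0489) lost its call on leaving out single arrays in 9 of 12 cases. The other MEIS2 probe set gave 3.42 there and was not called (adjusted p = 0.0652). MEIS3 was higher than in lymphoid tumors in both osteosarcoma lines (1.46, adjusted p = 4.03e-05) and spleen-derived cultures (0.99, adjusted p = 1.37e-09). Of the 7 TALE genes, 4 were higher and PBX2 was lower (difference -0.82, adjusted p = 5.81e-04) in spleen-derived cultures than in lymphoid tumors, beside 16% of all genes higher and 19.5% lower. PBX3 was among the 4 (1.27, adjusted p = 7.00e-04), a call lost on leaving out single arrays in 16 of 29 cases and in golden retrievers alone (adjusted p = 0.0182), and of its other probe sets 1 was called (1.09) and 1 was not (0.71, adjusted p = 0.00299).

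Other regional transcription factors were set beside the HOX genes. Of 26 limb and skeletal patterning genes measured, 11 were higher in osteosarcoma lines than in spleen-derived cultures and 1 lower, beside 13% of all genes higher and 10.8% lower. The median difference was 0.39 over the list and 0.04 over all genes. ALX1, a gene of craniofacial mesenchyme, read 8.0, 7.48, 7.16, 7.72 and 9.09 in OSCA20, OSCA23, OSCA59, OSCA75 and OSCA71, against 4.72 to 7.29 (median 5.18) in spleen-derived cultures. The hemangiosarcoma ChadG6 (7.29) was the 1 culture that reached the osteosarcoma range, and the difference was 2.56 (SE 0.32, 5.88-fold, limma adjusted p = 5.03e-05). PRRX2, a gene of limb and facial mesenchyme, was 8.34 to 10.29 in osteosarcoma lines and 6.58 to 8.13 in spleen-derived cultures, without overlap (2.23, SE 0.30, adjusted p = 8.54e-05). MSX2, a gene of bone and skull development, was 7.20 to 8.33 in osteosarcoma lines and 4.19 to 7.18 in spleen-derived cultures, without overlap (2.09, SE 0.44, adjusted p = 0.00244).

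The gene of that list that was lower in osteosarcoma lines was HAND2, which acts in limb, heart and visceral mesenchyme. It read 6.99, 5.94, 8.17, 8.47 and 9.02 in OSCA20, OSCA23, OSCA59, OSCA75 and OSCA71, against 8.45 to 10.74 (median 9.59) in spleen-derived cultures, and OSCA75 and OSCA71 overlapped with the cultures. The difference was -1.80 (SE 0.44, 3.48-fold, limma adjusted p = 0.00682), whereas the other HAND2 probe set gave -0.25 and was not called (adjusted p = 0.611). Against lymphoid tumors, spleen-derived cultures were higher by 4.18 (SE 0.33, 18.2-fold, adjusted p = 7.64e-12). Among 12 spleen and splanchnic mesoderm genes measured, 4 were higher in osteosarcoma lines and 1 lower, beside 13% of all genes higher and 10.8% lower. The higher ones included WT1 (0.36, adjusted p = 0.00928) and GATA6 (0.26, adjusted p = 0.0344), but the other probe set of each gave the opposite direction without a call (-0.77, adjusted p = 0.161, for WT1 and -0.22, adjusted p = 0.63, for GATA6). The call of GATA6 was lost without OSCA23, OSCA59 or OSCA75 (adjusted p between 0.0502 and 0.127). The related nuclear receptors of that list ran in opposite directions. NR2F1 was lower in osteosarcoma lines (7.72 ± 0.70, n = 5) than in spleen-derived cultures (9.81 ± 0.86, n = 13), with a difference of -2.09 (SE 0.41, adjusted p = 0.00143), and NR2F2 was higher (8.14 ± 0.55 and 6.26 ± 0.61, difference 1.88, SE 0.30, adjusted p = 2.99e-04), errors being SD.

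**Figure D4:**
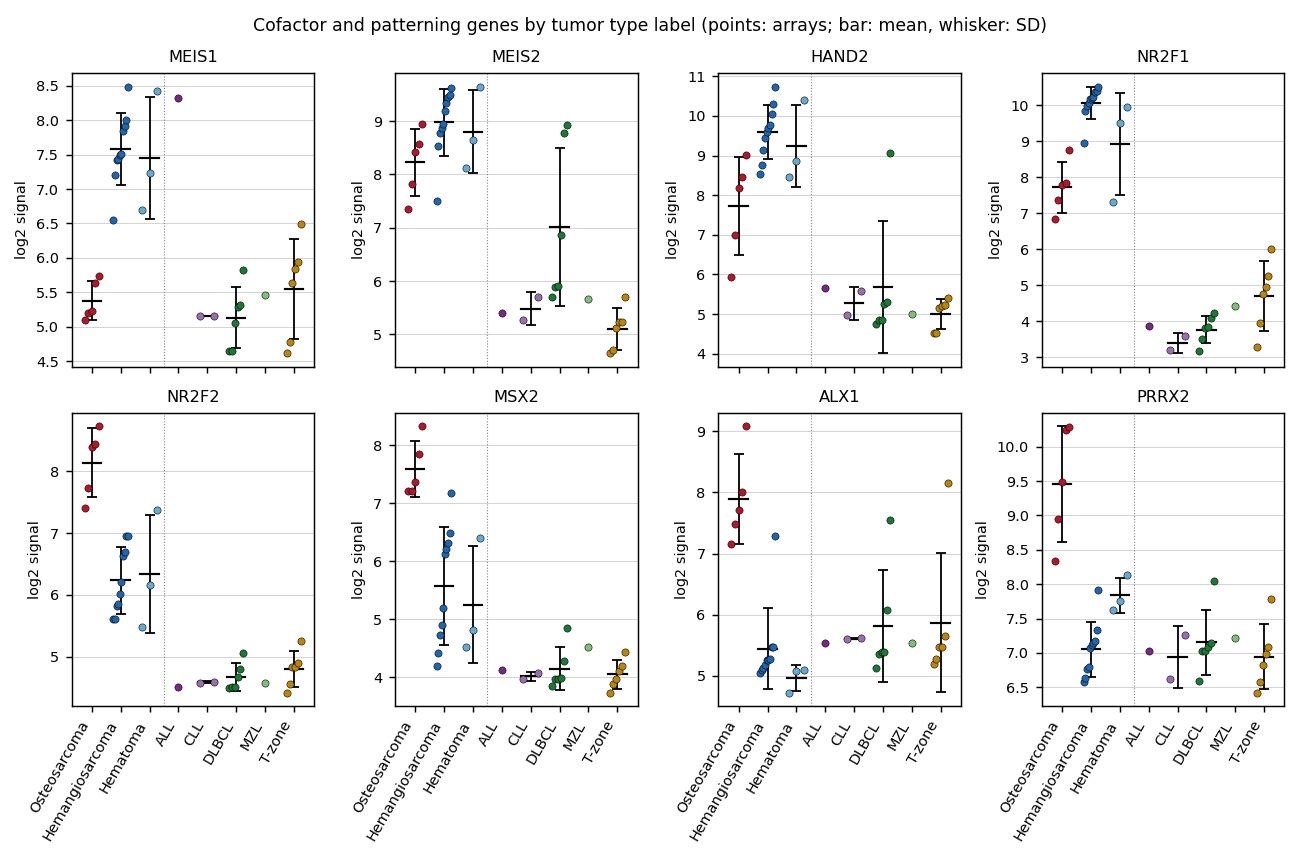
Log2 signal of MEIS1, MEIS2, HAND2, NR2F1, NR2F2, MSX2, ALX1 and PRRX2 on single arrays by tumor type label (points), with the mean (bar) and SD (whisker). MEIS1 is below all spleen-derived cultures in the 5 osteosarcoma lines, at 5.09 to 5.73, and PRRX2 and MSX2 are above all of them.

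Chromatin regulators that hold HOX clusters open or silent moved in both directions between osteosarcoma lines and spleen-derived cultures, with 4 of 20 higher and 3 lower (median difference 0.13), beside 13% of all genes higher and 10.8% lower. KMT2A, the methyltransferase that maintains HOX expression, was higher by its brightest probe set (1.26, SE 0.17, limma adjusted p = 9.99e-05) and lower by another (-0.46, adjusted p = 0.00874), while 1 more was not called (0.08), so the probe sets of this gene disagreed. RBBP5, a subunit of the same class of complexes, was lower (difference -1.69, SE 0.29, adjusted p = 5.66e-04). Of the Polycomb genes, which silence HOX clusters, RING1 was higher by 0.73 (adjusted p = 0.0106, with 0.51 and no call by its other probe set, adjusted p = 0.101) and SUZ12 was lower (difference -1.06, adjusted p = 0.0357), and SUZ12 lost its call on leaving out Frog, Joey, OSCA23, OSCA59 or OSCA75 alone (adjusted p between 0.0511 and 0.141). Of 6 ParaHox and caudal genes, which share ancestry with or act upstream of the HOX clusters, CDX2 was higher by 0.29 (adjusted p = 0.0141, with 0.25 and no call by its other probe set, adjusted p = 0.0952) and 0 were lower. Of 14 genes that flank the clusters, 2 were higher, SKAP1 beside HOXB (0.49, adjusted p = 0.0104) and MTX2 beside HOXD (0.53, adjusted p = 0.043), and 0 were lower, beside the same 13% and 10.8% of all genes. The other 4 probe sets of SKAP1 (-0.21 to 0.06) and the other of MTX2 (0.22, adjusted p = 0.279) were not called. SKAP1 averaged 4.48 in osteosarcoma lines and 3.99 in spleen-derived cultures, below the array medians, so its difference may lie near background. The call of MTX2 was lost on leaving out single arrays in 9 of 18 cases, and that of CDX2 without OSCA75 (0.23, adjusted p = 0.0604).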

How the data were processed

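RNA from each of 34 samples was hybridized to 1 Affymetrix Canine_2 array. The authors' deposited values are log2 intensities, which the submitters' processing notes credit to RMA in the affy package, and their versions are not given in the sources used here. No further normalization was applied. After 175 control probe sets were removed, 42860 were tested without a filter on low values, with limma 3.58.1 in R 4.3.3, in fits of the compared groups only, with Benjamini-Hochberg adjustment over all probe sets. The thresholds were an adjusted p of 0.05 for osteosarcoma against spleen-derived cells and for the lymphomas, 0.001 against lymphoid tumors and 0.1 for hemangiosarcoma against hematoma. A gene with several probe sets was read from its brightest probe set, by the mean of all 34 arrays, and for the genes named in a comparison the others are given where called differently. Symbols came from the platform annotation (29254 probe sets with 1 symbol, 439 with several, 13167 with none). All called HOX genes are named, up to 6 per direction and comparison, and of 6 lists of related genes up to 4 called members with the widest difference between osteosarcoma and spleen-derived cells. Genes outside that rule were chosen after their values were seen. The HOX members, lists and tests were chosen with earlier results of these data known. The fits were tested on simulated data. Alternatives were a filter, quantile normalization, centering, another variance prior, array weights, all arrays in 1 fit, other probe sets, subsets of dogs and leaving out each array. Python 3.11.15 with matplotlib 3.10.9 made the figures. The columns of the table that could not be assigned to a sample numbered 0, and the sample that was hybridized to a pair of chips could not be identified here.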

Additional observations from a re-analysis of the deposited data

Results flagged for a closer look

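In 6 cases, a single array stood far from the rest of their own group, by a Dixon test on groups of 4 to 10 arrays. In all, 18 of the 30 HOX probe sets gave 72 such tests, so the cases do not cover every member, and chance marks about 1 in 20 groups. Among hemangiosarcoma lines, Joey read 7.51 for HOXA7, where the next line read 5.6. Frog read 6.16 for HOXD10 by the more variable probe set, where the next line read 3.41, and 4.51 by the other probe set, where the next read 3.99. Among T-zone lymphomas, Fire read 4.79 and 4.82 for HOXC8 by its dimmer and brighter probe set, where the next arrays read 4.04 and 4.21. Among DLBCL, Chieftain read 4.91 for HOXA7, where the next array read 4.38, and all 6 DLBCL values of that gene were below the array medians. The HOXC8 values of Fire and the HOXD10 value of 4.51 in Frog also lay below the array medians.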

How the results depend on the processing

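Over 65 results for single genes and 1932 alternative values, 1769 kept their direction and side of the threshold, 140 lost a call, 17 gained one and 6 turned direction. Of HOX genes higher in osteosarcoma lines than in spleen-derived cultures (4), 2 were called with the filter on low values, under which 8 of the 21 genes were tested, 0 against hematomas alone and 1 in golden retrievers alone, both with fewer arrays. Of genes lower there (0), quantile normalization, all 34 arrays in 1 fit and hemangiosarcoma lines alone gave 1 each. Array weights gave 5 genes higher in osteosarcoma lines than in lymphoid tumors (3), the filter gave 2 of those higher in spleen-derived cultures than in lymphoid tumors (5), and all 34 arrays in 1 fit gave 2 higher in hemangiosarcoma lines than in hematomas (0). Where no value or construction above shows it, the cause was not tested. The share of all genes called in the alternative settings was not counted. Leaving out single arrays gave 2 to 5 higher and 0 to 1 lower for osteosarcoma against spleen-derived cells, 3 to 4 higher against lymphoid tumors, 4 to 6 higher for spleen-derived cells against lymphoid tumors and 0 to 2 higher for hemangiosarcoma against hematoma. Between osteosarcoma and spleen-derived cells, HOXA5 turned to -0.08 against hemangiosarcoma lines alone and -0.39 in golden retrievers alone, HOXA4 to -0.18 and -0.16 in the same settings and to -0.01 without OSCA75 (-0.01 to 0.48 over single arrays left out), and HOXB7 to 0.16 against hematomas alone. None of these was called. Counting HOX genes above 7 in place of the array median gave medians of 4 per osteosarcoma, 3 per spleen-derived and 1 per lymphoid array. The order of the groups was kept. Signals below the array median, as in 8 of 21 genes, may lie near background, which limits what their differences show. No paired analysis was possible because each array came from a different dog.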

Other observations

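NKX2-5, a homeobox gene of heart and spleen development on the list of splanchnic genes, was looked at after its values were seen. It read 9.07 and 8.57 in the hematomas Baxter and Kylie and 5.6 in Pippin, and between 5.17 and 6.68 on the other 31 arrays. A further probe set read 6.61, 6.63 and 3.72 in Baxter, Kylie and Pippin. Baxter and Kylie are the hematomas with the low HOXA4, HOXA5 and HOXA7 values, and the relation was not tested. HAND2 read 9.07 in the DLBCL of Chieftain, where the other 15 lymphoid arrays read 4.52 to 5.66, and ALX1 read 7.55 in Chieftain and 8.16 in the T-zone lymphoma of Rose, where the other 14 read 5.12 to 6.08. Fibroblast and mural markers averaged 5.76 in Chieftain and 5.37 in Rose, within the range of 5.37 to 8.69 over lymphoid tumors.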
